A study of Homo sapiens with 39 samples.

Results

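ACSL1, ACSL3, ACSL4, ACSL5 and ACSL6 encode the 5 long-chain acyl-CoA synthetases, and they were taken by gene name from the 45435 genes listed in the deposited tables. ACSL5 was chosen by its measured TPM, which differed widely between the cell lines. Its levels and differences are therefore given as a description, with no test. The other 4 genes were included as its relatives by name, and ACSL1, ACSL3 and ACSL4 were high enough for the main test.

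The study sequenced poly(A) RNA of HCT116, a human colorectal cancer line, in 13 groups of 3 libraries. The Empty Control group was the parental Flp-In host line, which holds no HNF4alpha construct. The remaining 12 groups were 12 stable lines, 1 line per isoform, each with a single insertion of 1 isoform (isoforms 1 to 12) of hepatocyte nuclear factor 4 alpha (HNF4A), a nuclear receptor that acts as a transcription factor in liver, gut and pancreas, fused to GFP at its C-terminus and switched on by doxycycline. All 13 groups received doxycycline at 2.5 µg/ml for 48 h in medium without selection antibiotics. Until then blasticidin S was in the medium of every group, with zeocin for the parental cells and hygromycin B for the 12 lines. No group made GFP alone, so GFP, the earlier antibiotics, the derivation of a line and the isoform itself cannot be told apart. The labels do not say whether the 3 libraries of a group came from separate cultures, so p-values measure only the spread between these libraries, which may be technical. By the standard nomenclature, which is background and not in the labels, isoforms 1 to 6 start from promoter P1 and isoforms 7 to 12 from promoter P2. Isoforms 4 to 6 hold an additional exon near the N-terminus, isoforms 2, 5, 8 and 11 a short insertion in the C-terminal part, and isoforms 3, 6, 9 and 12 a shortened C-terminus.

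Long-chain acyl-CoA synthetases join a long-chain fatty acid to coenzyme A at the cost of ATP. The acyl-CoA can then be built into triacylglycerol, phospholipids or sterol esters, be elongated, or be carried into mitochondria for oxidation. ACSL5 is known as the form of intestinal epithelium and liver, ACSL1 as that of liver, fat and heart, and ACSL6 as that of brain. ACSL3 is known from the endoplasmic reticulum and the surface of lipid droplets, and ACSL4 for its preference for arachidonic acid.

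In the GENCODE 29 annotation (GRCh38), ACSL5 lies on the plus strand at chr10:112374018-112428380. ACSL1 lies on the minus strand at chr4:184755595-184826818, ACSL3 on the plus strand at chr2:222860934-222944639, ACSL4 on the minus strand at chrX:109624244-109733403, and ACSL6 on the minus strand at chr5:131949973-132012243. RefSeq (GRCh38.p14) gives 16 promoter windows for the 5 genes, of which 2 belong to ACSL5, 1 each to ACSL3 and ACSL4, 5 to ACSL1 and 7 to ACSL6. Both ACSL5 windows lie inside the GENCODE 29 gene, downstream of its start at chr10:112374018. The bases before that start were not searched. The sequences before both RefSeq start sites of ACSL5 are shown because ACSL5 is the gene whose level differs most between the lines. Those of ACSL3 and ACSL4 stand beside them because these 2 genes made up most of the family's mRNA in the parental cells. Each is written 5′ to 3′ in the direction of the gene, without the bases that GENCODE 29 places in an exon, and capitals mark CAAAG, the core of the HNF4A motif, on either strand (CTTTG where it is on the opposite strand).

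ACSL5 first start site, chr10:112375018-112375234 (+): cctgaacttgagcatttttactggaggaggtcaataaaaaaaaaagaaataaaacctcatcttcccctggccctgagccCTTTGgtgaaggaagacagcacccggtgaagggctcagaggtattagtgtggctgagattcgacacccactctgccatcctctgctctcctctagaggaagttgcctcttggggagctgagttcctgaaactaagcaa

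ACSL5 second start site, chr10:112375955-112376197 (+): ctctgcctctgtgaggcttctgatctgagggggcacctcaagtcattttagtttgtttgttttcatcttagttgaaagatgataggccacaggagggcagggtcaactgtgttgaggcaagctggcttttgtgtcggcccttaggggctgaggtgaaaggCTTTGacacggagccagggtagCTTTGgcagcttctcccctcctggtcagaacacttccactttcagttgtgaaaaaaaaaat

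ACSL3 start site, chr2:222860786-222860933 (+): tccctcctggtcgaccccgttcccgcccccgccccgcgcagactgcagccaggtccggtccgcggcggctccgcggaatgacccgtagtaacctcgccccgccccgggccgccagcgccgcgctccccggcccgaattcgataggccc

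ACSL4 start site, chrX:109733404-109733507 (-): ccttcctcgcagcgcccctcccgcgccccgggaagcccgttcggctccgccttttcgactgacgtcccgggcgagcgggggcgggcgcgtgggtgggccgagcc

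The 250 bases before the first ACSL5 start site held 1 CAAAG core, 171 bases before the start, and those before the second held 2, which begin 90 and 68 bases before it. The letters CAAAG or their complement occurred in 42.1% of all 35114 RefSeq windows of this length. They were found in 3 of the 5 ACSL1 windows, 2 of the 7 ACSL6 windows and neither the ACSL3 nor the ACSL4 window. The longer motif CAAAGTCCA, searched on both strands, was present in 0.325% of all windows and CAAAGTTCA in 0.251%, and both contain the core CAAAG. None of the 16 windows of the family held either longer motif. The 2 ACSL5 windows had 50% and 48.8% G and C and 3 and 2 CpG sites. The ACSL3 window had 75.2% and 35 CpG sites and the ACSL4 window 77.2% and 42, against medians of 58% and 11 over all windows.

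Abundance was deposited as TPM (a value per transcript length, scaled to a fixed sum per library). Read depth per library is therefore unknown and no counting interval can be given for a library. HNF4A, given as the sum of its 12 isoform rows, was measured first to check the labels. Parental cells had 31.5 TPM ± 0.589 (SD, n = 3), the 12 lines had means of 613.5 to 1071 TPM, and HNF4A was called higher in all 12. The sum does not show which isoform a line holds. By row name, every line was highest in the row of its own isoform. The parental cells, which hold no construct, were highest in the row of isoform 12, so for that line the match tells less. The tables of isoforms 4 and 5 hold the rows of these 2 isoforms in the opposite order to the other 11 tables. Which of these 2 isoforms each of the 2 lines makes therefore rests on the row names. In isoform 3 the HNF4A level was uneven, with 406.9 TPM in replicate 1 and 833.5 and 771.8 TPM in replicates 2 and 3. Of 10 epithelial and colorectal markers, 6 (EPCAM, CDH1, KRT8, KRT18, KRT19 and CDX2) were at 1 TPM or more in every library, and CDX1 and CDH17, which mark differentiated gut epithelium, stayed under 1 TPM in every library. The other 2, VIL1 (villin, of the brush border) and LGALS4 (a gut galectin), varied with the lines. VIL1 had means of 0.554 TPM in the parental cells, 0.832 to 1.36 TPM in isoforms 4 to 6, 2.83 to 6.40 TPM in isoforms 7 to 12, and 42.7, 33.3 and 18.0 TPM in isoforms 1 to 3. LGALS4 had means of 0.137 TPM in the parental cells, 0.123 to 0.333 TPM in isoforms 4 to 6, 0.727 to 4.12 TPM in isoforms 7 to 12, and 11.5, 11.5 and 2.78 TPM in isoforms 1 to 3. Both had higher means than the parental cells in all 9 lines in which ACSL5, described next, was above 1 TPM, and their part in the ACSL5 values was not tested. The summed level of the 10 was 2490 to 5648 TPM per library. Of 6 markers of other cells, PTPRC, CD3E, COL1A2 and ALB were under 1 TPM in every library, PECAM1 was at 1.15 to 6.43 TPM and COL1A1 at 7.76 to 14.9 TPM, and the 6 summed to 9.90 to 20.4 TPM.

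ACSL5 mRNA was under 1 TPM in every library of the parental cells and of isoforms 4, 5 and 6, and was between 20 and 190.5 times the parental mean in the other 9 lines. The 3 parental libraries had 0.526, 0.640 and 0.485 TPM (0.550 ± 0.0801, SD). Isoform 1 gave the highest values, 109.9, 93.9 and 110.8 TPM (104.9 ± 9.50, SD, n = 3), and isoform 2 followed with 81.4, 81.3 and 80.9 TPM (81.2 ± 0.288). Isoform 3, which shares its N-terminus with these 2, had 7.37, 13 and 12.7 TPM (11.0 ± 3.16). Its low library was replicate 1, the one with the low HNF4A value.

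In the lines of isoforms 4, 5 and 6, ACSL5 stayed under 1 TPM. Isoform 4 had 0.627, 0.619 and 0.563 TPM (0.603 ± 0.0347) and isoform 5 had 0.588, 0.621 and 0.363 TPM (0.524 ± 0.140), and both overlapped the parental libraries. Isoform 6 had 0.230, 0.270 and 0.271 TPM (0.257 ± 0.0235), below every parental library, as were 15.9% of all tested genes in that line, from which nothing is read because ACSL5 was chosen by these values. The parental mean was 2.14 times the isoform 6 mean.

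The 6 lines whose isoforms start from promoter P2 all had ACSL5 above 11 TPM. Isoform 7 had 65.2, 60.6 and 66.2 TPM (64.0 ± 2.99), isoform 8 had 42.7, 44.9 and 47.2 TPM (44.9 ± 2.25), and isoform 9 had 11.2, 12.5 and 12.9 TPM (12.2 ± 0.901). Isoform 10 had 58.0, 54.6 and 61.8 TPM (58.1 ± 3.62), isoform 11 had 51.5, 55.2 and 52.9 TPM (53.2 ± 1.82), and isoform 12 had 11.8, 12.1 and 12.8 TPM (12.2 ± 0.516). Within both sets of 3, the line of the isoform with the shortened C-terminus was the low one, with no overlap.

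**Figure D1:**
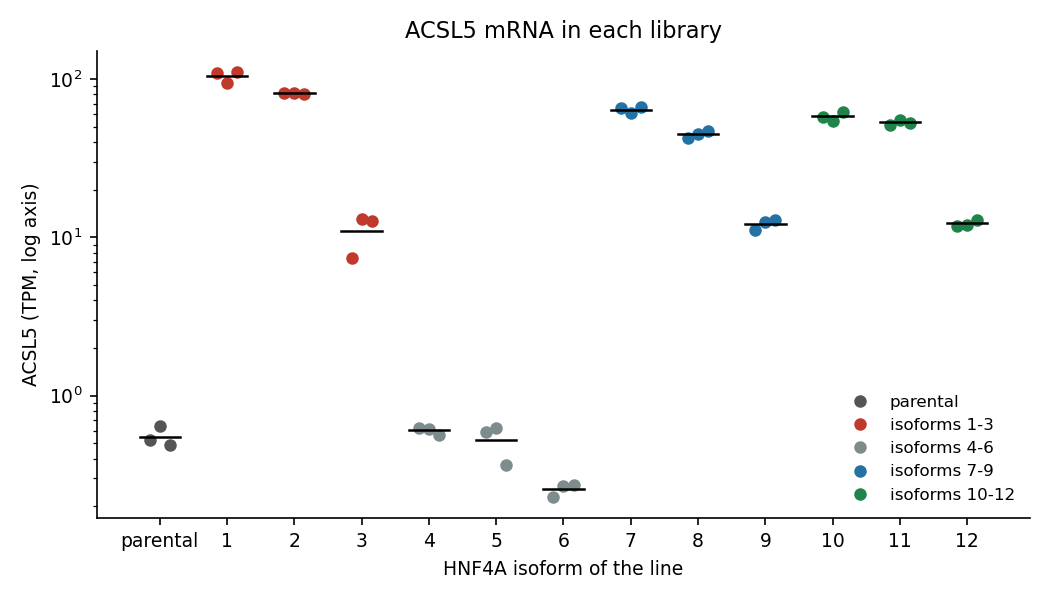
ACSL5 mRNA in each library (TPM, log axis) for the parental cells and the lines of isoforms 1 to 12; each point is 1 library, the line marks the mean of 3 and colours mark the N-terminal class. Isoforms 1, 2, 7, 8, 10 and 11 lie between 42.7 and 110.8 TPM, isoforms 3, 9 and 12 between 7.37 and 13 TPM, and isoforms 4 to 6 at or below 0.627 TPM beside the parental cells.

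Ordered by mean, the levels ran from isoform 1 to isoforms 2, 7, 10, 11, 8, 12, 9, 3 and 4, then the parental cells, isoform 5 and isoform 6. Neighbours whose libraries overlapped were isoforms 7 and 10, 10 and 11, 12 and 9, 9 and 3, isoform 4 and the parental cells, and the parental cells and isoform 5. The other steps of this order were free of overlap. In TPM the widest step was the 32.7 TPM from isoform 8 (44.9 TPM) down to isoform 12 (12.2 TPM). As a ratio it was the 18.3-fold step from isoform 3 (11.0 TPM) down to isoform 4 (0.603 TPM).

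Lines whose isoforms differ by 1 named part can be set side by side. With the shortened C-terminus, ACSL5 was at 0.105 of the level of its partner in isoform 3 over isoform 1, 0.427 in isoform 6 over isoform 4, 0.190 in isoform 9 over isoform 7 and 0.210 in isoform 12 over isoform 10. Each of these 4 pairs was free of overlap, although the pair of isoforms 6 and 4 lay wholly under 1 TPM. With the short insertion the ratio was 0.774 for isoform 2 over 1 and 0.702 for isoform 8 over 7, without overlap. It was 0.869 for isoform 5 over 4 and 0.916 for isoform 11 over 10, and there the libraries overlapped.

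The N-terminal part went with the widest gaps. ACSL5 was 173.9 times higher in isoform 1 than in isoform 4, 154.9 times higher in isoform 2 than in isoform 5 and 42.8 times higher in isoform 3 than in isoform 6. Isoform 7 was at 0.611 of isoform 1 and isoform 8 at 0.553 of isoform 2, without overlap, while isoforms 9 and 3 overlapped at a ratio of 1.11. Between isoforms 10 to 12 and 7 to 9 the ratios were 0.908, 1.18 and 1.00, and only isoforms 11 and 8 were free of overlap. With both ends of the protein as terms in 1 model over the 12 line means, ACSL5 was lower by 5.01 ± 0.43 (SE) on the log2(TPM + 1) scale in isoforms 4 to 6 than in 1 to 3. The same model gave -0.46 ± 0.43 for isoforms 7 to 9 minus 1 to 3, and -1.86 ± 0.33 for isoforms 3, 6, 9 and 12 minus the other C-terminal forms. This model adds the 2 ends without a joint term, so it averages over unlike pairs. On the same scale, isoforms 3, 6, 9 and 12 minus isoforms 1, 4, 7 and 10 gave -3.17, -0.35, -2.30 and -2.16. Isoforms 6 and 4 both lay under 1 TPM.

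The level of ACSL5 did not follow the level of HNF4A from line to line. Isoform 6 had the highest HNF4A mean, 1071 TPM, and the lowest ACSL5 mean, and isoforms 2 and 11 had the lowest HNF4A means, 613.5 and 613.8 TPM. Over the 12 line means, Pearson's r of ACSL5 with HNF4A was -0.683 and Spearman's rho -0.573, which are descriptions of 12 points that share 1 host line and 1 processing. Within isoform 3 both genes were lowest in replicate 1: ACSL5 amounted to 1.81, 1.56 and 1.64 TPM per 100 TPM of HNF4A in its 3 libraries. Isoforms 9 and 12 had 1.21 to 1.38 and 1.77 to 1.85 on the same measure, isoforms 1 and 2 had 12.1 to 14.5 and 12.4 to 14.1, and isoforms 4 to 6 stayed at or under 0.0719.

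**Figure D2:**
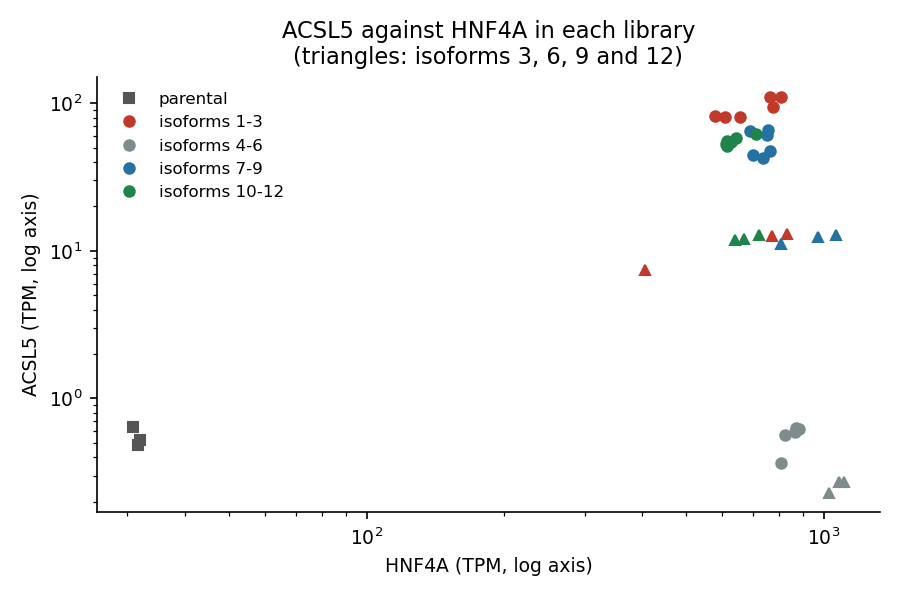
ACSL5 (TPM, log axis) against HNF4A (TPM, log axis) with 1 point per library; squares are parental cells, circles lines with a full C-terminus, triangles isoforms 3, 6, 9 and 12. The libraries of all 12 lines lie between 406.9 and 1109 TPM of HNF4A, while their ACSL5 values run from 0.230 to 110.8 TPM.

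The authors' deposited tables give their own log2 fold changes from normalised counts. For ACSL5 these ran from -0.28 in isoform 6 to 7.46 in isoform 1, with 9 lines above 1. No adjusted p was listed for ACSL5 in isoform 6. These values are not plain ratios of mean TPM. Isoform 6 had -0.28 where its mean TPM was 0.467 of the parental mean. Isoform 12 had 3.51 where its mean TPM was 22.2 times the parental mean. On the log2(TPM + 1) scale used here, which understates the change of a gene this low in the parental cells, the differences were 6.09, 5.73 and 2.92 in isoforms 1 to 3. They were 5.39, 4.89 and 3.09 in isoforms 7 to 9, 5.25, 5.13 and 3.09 in isoforms 10 to 12, and 0.05, -0.03 and -0.30 in isoforms 4 to 6 (SE 0.11 each). All 12 differences share the same 3 parental libraries.

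Because TPM is a value per transcript length, the members can be compared with each other. In the parental cells ACSL3 was the most abundant member at 58.7 TPM ± 2.83 (SD, n = 3), followed by ACSL4 at 38.4 TPM ± 2.18 and ACSL1 at 14.4 TPM ± 0.218, and ACSL6 at 0.639 TPM ± 0.0604 was close to ACSL5. ACSL5 made up 0.488% ± 0.0613 of the summed TPM of the 5 genes there. Its share was 51.0% ± 2.89 with isoform 1 and 43.5% ± 0.436 with isoform 2. Among isoforms from promoter P2 it was 36.8% ± 1.43 (isoform 7), 33.8% ± 2.31 (isoform 10), 32.3% ± 0.601 (isoform 11) and 27.7% ± 1.09 (isoform 8). In isoforms 3, 9 and 12 it was 8.66% to 8.98%. ACSL5 was the highest member in all 3 libraries of isoforms 1, 2 and 7 and in 2 libraries of isoform 10, and ACSL3 was the highest in every other library.

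The sum of the family was 112.7 TPM ± 4.89 in the parental cells and 205.2 TPM ± 9.35 in isoform 1. Without ACSL5 the sums were 112.2 TPM ± 4.85 and 100.3 TPM ± 4.64. Over the 12 lines the sum without ACSL5 ran from 100.3 TPM in isoform 1 to 129.5 TPM ± 11.9 in isoform 12.

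**Figure D3:**
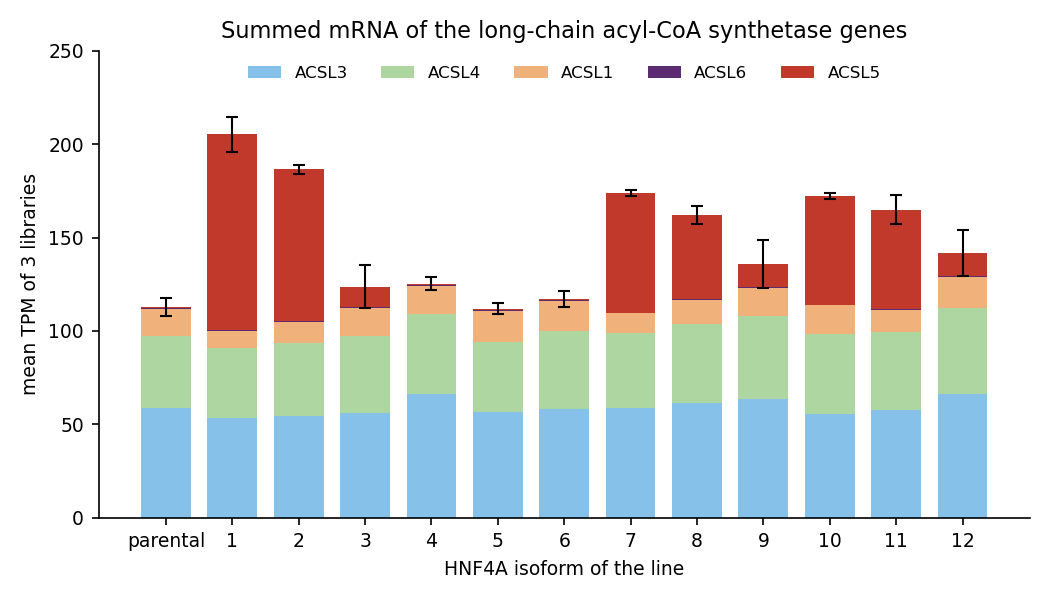
Mean TPM of the 5 long-chain acyl-CoA synthetase genes stacked by group (3 libraries each), from 0; error bars are the SD of the summed TPM. The sum is 112.7 TPM in the parental cells and 205.2 TPM in isoform 1, and the ACSL5 part (top) sets the tall bars apart from the rest.

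ACSL1, ACSL3 and ACSL4 were tested in a single limma fit across the 15003 genes that averaged 1 TPM or more. A call needed a Benjamini-Hochberg adjusted p under 0.05 together with an absolute log2 difference of at least 1 from the parental cells. None of the 36 tests of these 3 genes was called, 14 had an unadjusted p under 0.05 and 7 an adjusted p under 0.05, and the log2 differences ran from -0.63 to 0.25 (largest SE 0.0733). Among all 15003 genes, the share called was 4.52% for isoform 1, 3.73% for isoform 2, 0.807% for isoform 3, 0.54% for isoform 4, 0.293% for isoform 5 and 0.247% for isoform 6. It was 2.08% for isoform 7, 1.41% for isoform 8, 0.827% for isoform 9, 1.44% for isoform 10, 1.7% for isoform 11 and 0.573% for isoform 12. An adjusted p under 0.05 without the minimum fold change was far more common, at 58.5%, 55.3%, 26%, 16.3%, 14.8%, 10.1%, 39.6%, 34.4%, 22.7%, 37.3%, 38.5% and 14.6% of all genes for isoforms 1 to 12 in turn.

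ACSL1, the liver, fat and heart form, had lower values than the parental cells in several lines with high ACSL5. The parental libraries had 14.2, 14.6 and 14.3 TPM of ACSL1. Isoform 1 had 9.12, 8.55 and 9.17 TPM, a log2 difference of -0.63 ± 0.058 (SE, limma adjusted p = 1.34e-10). Isoform 7 had 11.0, 10.4 and 9.94 TPM (-0.43), isoform 2 had 11.4, 10.8 and 10.8 TPM (-0.36) and isoform 11 had 11.9, 12.6 and 11.3 TPM (-0.25), with limma adjusted p of 6.29e-07, 5.02e-06 and 0.000856. In these 4 lines every library lay below every parental library, and the differences were smaller than the minimum fold change. Isoform 8 lay below the parental libraries too, at 12.0 to 13.5 TPM (-0.14, limma adjusted p = 0.0619). Of all tested genes, 42.8%, 41%, 31.7%, 25% and 31.4% lay entirely below the parental libraries in the lines of isoforms 1, 2, 7, 8 and 11.

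ACSL1 did not lie low in every line with high ACSL5. Isoform 10, with 58.1 TPM of ACSL5, had 16.1, 15.6 and 14.5 TPM of ACSL1 (log2 difference 0.09, limma adjusted p = 0.242), overlapping the parental libraries. The lines of isoforms 4, 5, 6 and 12 lay above the parental libraries, at means of 15.1 to 16.3 TPM, as did 13.2%, 22.3%, 16.7% and 15.7% of all tested genes in these lines. Of these, isoform 12 had a limma adjusted p of 0.0472 (0.17 ± 0.058), which was 0.126, 0.0753 and 0.116 without parental replicate 1, 2 or 3 and 0.131 and 0.165 without isoform 12 replicate 2 or 3. It was 0.0802 with no filter on low values and 0.0815 in a fit of only the 2 groups. In isoform 5 the adjusted p was 0.0713, and 0.0419 without 1 of its libraries. Between classes, ACSL1 was higher by 0.44 ± 0.13 (SE, limma adjusted p = 0.0311, 12 line means) in isoforms 4 to 6 than in 1 to 3, below the minimum fold change, where 1.95% of all genes were called and 34.6% had an adjusted p under 0.05. Over the 12 line means, r of ACSL1 with ACSL5 was -0.751 and rho -0.797, as a description of points that share 1 host line.

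ACSL3 and ACSL4, the 2 most abundant members in the parental cells, varied little. ACSL3 means lay between 53.3 TPM (isoform 1) and 66.4 TPM (isoform 12), and the 12 log2 differences between -0.14 and 0.17, with a lowest limma adjusted p of 0.0578 in isoform 4. With a library left out, the limma adjusted p of ACSL3 was under 0.05 in isoform 1 (0.0328 without parental replicate 1, 0.0373 without isoform 1 replicate 3), in isoform 9 (0.0393 without isoform 9 replicate 1) and in isoform 12 (0.0114 without isoform 12 replicate 1). Only isoform 4, at 64.0, 64.7 and 70.1 TPM, lay above the 3 parental libraries (55.4, 60.0 and 60.6 TPM), as did 13.2% of all tested genes in that line. ACSL4 means lay between 37.7 TPM (isoform 1) and 46.1 TPM (isoform 12), and the libraries of isoforms 4 and 8 lay above all parental ones (36.5, 40.8 and 38.0 TPM), as did 13.2% and 23.5% of all tested genes there. Its log2 difference was 0.21 in isoform 9 and 0.25 in isoform 12 (SE 0.073 each), at limma adjusted p of 0.0374 and 0.0185, where the libraries overlapped those of the parental cells. In isoform 9 the adjusted p was 0.152 and 0.0963 without parental replicate 1 or 3 and 0.071 and 0.28 without isoform 9 replicate 2 or 3, 0.0784 with no filter and 0.187 in a fit of only the 2 groups. In isoform 12 it was 0.0933 and 0.0609 without parental replicate 1 or 3 and 0.0878 and 0.131 without isoform 12 replicate 2 or 3, and 0.102 in a fit of only the 2 groups.

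Scaling TPM by the median of ratios moved the median log2 difference of all genes by -0.01 (isoform 5) to 0.12 (isoform 1, from -0.11 to 0.02). With this scaling ACSL3 lay above the parental cells in 10 lines in place of 4, with an adjusted p under 0.05 in 3 (isoforms 4, 9 and 12), and ACSL4 lay above in 11 lines in place of 10, with an adjusted p under 0.05 in 8 lines in place of 2. ACSL1 kept its sign in all 12 lines with scaling and lay above the parental cells with an adjusted p under 0.05 in 2 lines in place of 1, isoform 6 going from 0.0582 to 0.0156. No test of these 3 genes reached the minimum fold change with either scaling.

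**Figure D4:**
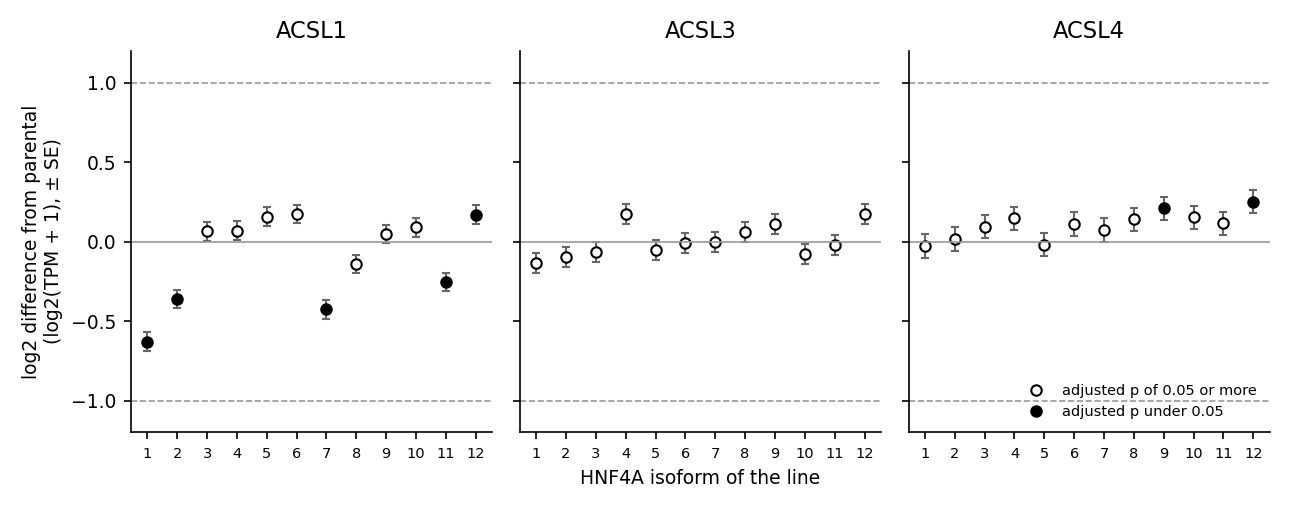
Log2 difference from the parental cells (log2(TPM + 1), limma estimate ± SE) of ACSL1, ACSL3 and ACSL4 in the lines of isoforms 1 to 12; filled points have an adjusted p under 0.05 and dashed lines mark the minimum fold change. ACSL1 runs from -0.63 in isoform 1 to 0.17 in isoform 6, and ACSL3 and ACSL4 stay between -0.14 and 0.25.

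ACSL6, the brain form, had a mean under 1 TPM over the libraries and was left out of the main fit. Its parental libraries had 0.576, 0.696 and 0.645 TPM, and line means ran from 0.350 TPM (isoform 11) to 0.813 TPM (isoform 4). The lines of isoforms 1, 3, 7, 10 and 11 lay below every parental library, at 0.227 to 0.508 TPM, as did 42.8%, 24.3%, 31.7%, 28.6% and 31.4% of all tested genes in these lines. In a fit with no filter on low values, ACSL6 had log2(TPM + 1) differences of -0.23 to -0.28 in these 5 lines, with limma adjusted p between 0.00335 and 0.0275. The other 7 lines had -0.10 (isoform 6) to 0.14 (isoform 4), with adjusted p of 0.259 or more. These 5 lines were picked by their values, and the share of all genes passing in that fit is not given. The authors' deposited tables also list ACSL6 with an adjusted p under 0.05 in 5 lines, all lower, down to -0.58 in isoform 11. They list ACSL1 as lower in 4 lines and higher in 2, ACSL3 as higher in 2 and ACSL4 as higher in 9, with no log2 fold change past 1 for any of the 4 relatives. The share of all genes under 0.05 in the authors' tables is not given here, so nothing is read from these counts. In the limma fit used here that share was 10.1% (isoform 6) to 58.5% (isoform 1) per line.

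Other genes that make, bind or use acyl-CoA were followed through a list of 110 genes in 7 roles, of which 79 could be tested. The list gave 10 called genes in isoform 1, all higher (12.7% of the list, against 2.74% of all genes called higher and 4.52% called either way). It gave 7 in isoform 2, of which 6 were higher (8.86% for the 7, against 3.73%, with 2.36% of all genes called higher). Isoform 7 had 1 (1.27% against 2.08%), isoform 8 had 2 (2.53% against 1.41%), isoform 11 had 1 (1.27% against 1.7%) and the other 7 lines had none. In those 7 lines (isoforms 3, 4, 5, 6, 9, 10 and 12 in turn), 41, 21, 8, 10, 25, 53 and 20 of the 79 list genes had an adjusted p under 0.05. The shares of all genes there were 26%, 16.3%, 14.8%, 10.1%, 22.7%, 37.3% and 14.6%. An unadjusted p under 0.05 was found for 48, 29, 18, 23, 34, 58 and 32 list genes. Of all 15003 genes it was found for 5571, 4391, 4035, 3473, 5041, 6831 and 4175. The median log2 difference of the list was -0.07 in isoform 1 and -0.04 in isoform 2, beside -0.11 and -0.09 for all tested genes. Over the 12 lines, 10 of the 79 genes rose in at least 1 line and 1 fell, beside 3.6% of all tested genes that rose and 3.18% that fell in at least 1 line. The counts by role that follow use the same rule and stand beside the same 2 shares.

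Among the genes of glycerolipid and phospholipid acylation, 4 of 23 tested rose in at least 1 line. AGPAT2, which adds the second fatty acid to the glycerol backbone, was at 59.5, 57.7 and 57.1 TPM in the parental cells and 242.9, 201.0 and 209.6 TPM in isoform 1. Its log2 difference there was 1.88 ± 0.058 (limma adjusted p = 2.14e-21). It was 1.87 with isoform 2 and 1.08 with isoform 11, at limma adjusted p of 3.76e-21 and 3.73e-15. In isoform 7 AGPAT2 was just inside the minimum fold change at 0.99. In isoforms 4, 5 and 6 it was at 0.32, 0.15 and 0.01, with limma adjusted p of 0.000171, 0.0893 and 0.943. GPAT3, LPCAT3 and LPIN3 were the other called genes of this role, named here because they were called. GPAT3, which makes lysophosphatidic acid from glycerol-3-phosphate, rose in isoforms 1, 2 and 8, and in isoform 8 its call was lost without parental replicate 1 or 3 or isoform 8 replicate 3.

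Among the other synthetases, 1 of 12 tested rose. SLC27A4, a fatty acid transport protein with acyl-CoA synthetase activity, was at 40.5, 40.2 and 39.6 TPM in the parental cells, 111.6, 103.8 and 107.7 TPM in isoform 1 and 92.4, 95.0 and 94.5 TPM in isoform 2. The log2 differences were 1.40 ± 0.056 (limma adjusted p = 6.46e-19) and 1.21 (limma adjusted p = 2.5e-17). In the other lines with high ACSL5, SLC27A4 was between 0.62 (isoform 12) and 0.95 (isoform 7), under the minimum fold change.

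For the carnitine shuttle, which carries acyl groups into mitochondria, 1 of 5 genes rose. SLC25A20, the carnitine-acylcarnitine carrier of the inner membrane, was at 17.4, 16.2 and 17.2 TPM in the parental cells and 47.6, 47.1 and 52.3 TPM in isoform 1 (1.48 ± 0.076, limma adjusted p = 2.65e-16). It was at 43.7, 45.2 and 46.4 TPM in isoform 2 (1.36, limma adjusted p = 2.29e-15). In isoform 3 it had 22.0 TPM in replicate 1 and 30.1 and 31.1 TPM in the others, so replicate 1 was again the low library.

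In elongation and desaturation 1 of 15 tested genes rose. ELOVL1, an elongase of saturated very-long-chain fatty acids, went from 65.9 TPM ± 1.60 (SD, n = 3) to 135.7 TPM ± 4.37 in isoform 1 (1.03 ± 0.038, limma adjusted p = 1.24e-19) and 137.4 TPM ± 1.48 in isoform 2 (1.05, limma adjusted p = 9.72e-20). Of the 6 tested thioesterases, which split acyl-CoA again, ACOT11 rose in isoform 1, from 6.88 TPM ± 0.556 to 16.1 TPM ± 0.714 (1.12 ± 0.066, limma adjusted p = 5.69e-15). None of the 7 tested genes of sterol ester and ceramide formation was called in any line.

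Binding and uptake held the only list gene that fell. MFSD2A, a carrier of lysophospholipids with long-chain acyl groups, had 12.2, 10.5 and 10.6 TPM in the parental cells and 5.12, 4.50 and 4.20 TPM in isoform 7 (-1.11 ± 0.12, limma adjusted p = 7.94e-09). It fell as well with isoform 2 (-1.06) and isoform 8 (-1.02), at limma adjusted p of 8.3e-09 and 6.65e-08, and each of these 2 calls was lost with median-of-ratios scaling, without parental replicate 1 and without replicate 3 of the line. In isoform 1 it was at -0.94. ACBD4, an acyl-CoA binding protein, rose in isoform 1, and SCP2, a lipid transfer protein, in isoforms 1 and 2. The cytosolic fatty acid binding protein of liver and gut, FABP1, was listed at 0 TPM in every library.

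**Figure D5:**
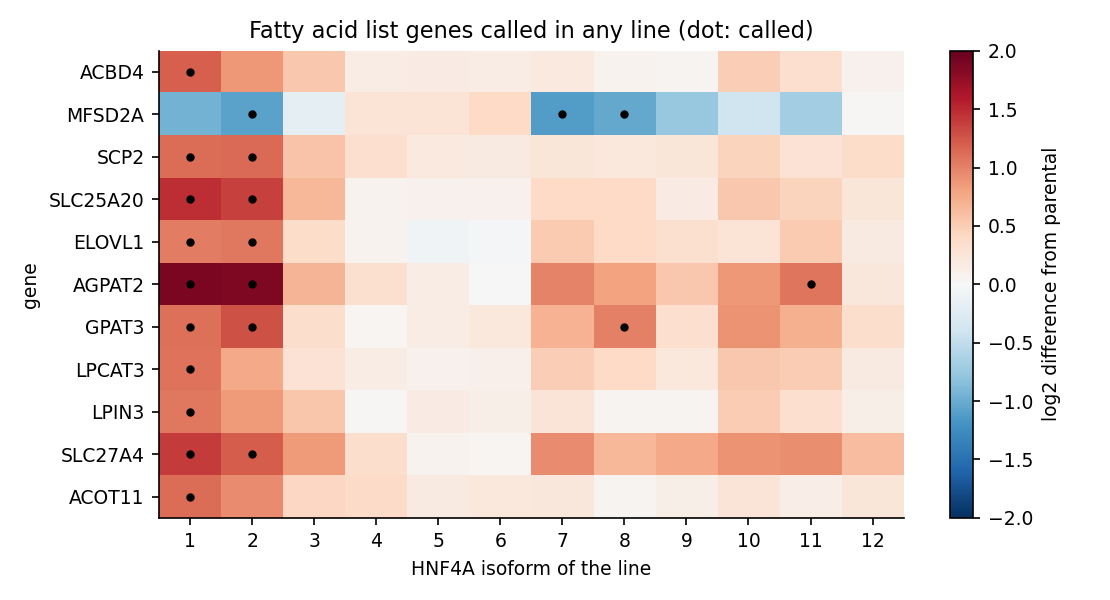
Log2 difference from the parental cells of the 11 list genes called in any line (rows) in the lines of isoforms 1 to 12 (columns); a dot marks a call and the colour scale runs from -2 to 2. AGPAT2 has the highest value, 1.88 in isoform 1, MFSD2A is the only row with dots on values below 0, and isoforms 4 to 6 have no dot.

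Between classes, 3 list genes were called for isoforms 4 to 6 minus 1 to 3, which is 3.80% of the list beside 1.95% of all genes. AGPAT2 fell by 1.31 ± 0.18 (SE) and SLC25A20 fell by 1.08 ± 0.13, at limma adjusted p of 0.00197 and 0.00119. MFSD2A was higher by 1.05 ± 0.14 (limma adjusted p = 0.00165) and at 0.98, under the minimum, with median-of-ratios scaling. No list gene was called for isoforms 7 to 9 minus 1 to 3, where 0.52% of all genes were called. There 36 of the 79 list genes had an unadjusted p under 0.05, beside 4792 of all 15003 genes. For the shortened C-terminus no list gene was called either, beside 0.00667% of all genes. At an unadjusted p under 0.05 it had 29 list genes, beside 2724 of all 15003 genes. AGPAT2 was at -0.63 ± 0.14 there (limma adjusted p = 0.102).

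Of the 4 genes around ACSL5, the 3 that could be tested did not share its range, while TECTB, which could not, was listed above 0 in the same 9 lines as those with high ACSL5, at far lower levels. GPAM, which lies before it and makes lysophosphatidic acid at the mitochondrial surface, had log2 differences of -0.20 to 0.06. TECTB, a gene of the tectorial membrane of the inner ear that lies between GPAM and ACSL5, was listed at 0 in every library of the parental cells and of isoforms 4, 5 and 6. It had 0.307, 0.426 and 0.224 TPM in isoform 1, means of 0.0812 to 0.157 TPM in isoforms 2, 7, 8, 10 and 11, and means of 0.00434 to 0.0291 TPM in isoforms 3, 9 and 12, where it was at 0 in 1 library of isoform 9 and 2 of isoform 12. These levels are too low to be tested here. ZDHHC6, a palmitoyltransferase on the opposite strand whose 3′ end overlaps that of ACSL5, had 0.01 (isoform 4) to 0.46 ± 0.035 (isoform 8, limma adjusted p = 1.37e-11), with 64.1 TPM in isoform 1 and 85.9 TPM in isoform 8. The strand setting of the authors' quantification is not given in the sources used here, so reads of the overlap may be shared. VTI1A, a SNARE protein gene that follows, had 0.02 to 0.78 ± 0.064 (isoform 2, limma adjusted p = 1.26e-11). None of the 3 tested neighbours was called in any line, while 9 lines for ZDHHC6, 8 for VTI1A and 2 for GPAM had a limma adjusted p under 0.05. Such an adjusted p was found for 10.1% (isoform 6) to 58.5% (isoform 1) of all tested genes per line.

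The genes whose mean log2(TPM + 1) over the 13 groups was most like that of ACSL5 were IRAK2 (Pearson's r 0.985), LOC102724507 (0.985), IL32 (0.984), MAGEA3 (0.981) and PRKAG2 (0.981). These are descriptions over 13 points from 1 host line. Of the 15003 genes, 306 other than ACSL5 had an r over 0.9, the named genes included. IRAK2, a kinase of interleukin-1 receptor signalling, went from a parental mean of 3.53 TPM to 29.1 TPM in isoform 1, and IL32, a cytokine gene, from 0.424 to 139.3 TPM. PRKAG2, a regulatory subunit of AMP-activated protein kinase, went from 33.6 to 66.7 TPM in isoform 1. MAGEA3 spanned only 0.16 on the log2 scale over the groups, against 6.39 for ACSL5, and has near-identical gene copies, so its value is uncertain.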

How the data were processed

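Poly(A) RNA of 39 HCT116 libraries was sequenced by the authors on a stranded library kit, per the labels' protocols. Reads were handled with Trimmomatic 0.36, FastQC 0.11.5, kallisto 0.44.0 and DESeq2 1.22.2, and GRCh38.p12 is the build named, per the submitters' processing notes. The authors deposited TPM per library in 13 tables of 45446 rows, and each library summed to between 999972.6 and 999987.7. Each table of a line adds, per the file headers, the authors' mean normalised count, log2 fold change with its standard error and adjusted p-value against the parental cells, and these columns entered no fit. TPM do not show how deeply a library was sequenced. Per table, mean normalised counts add up to between 50609338 and 56136330. Between 27884 and 30550 genes were above 0 TPM per library.

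The 12 rows of HNF4A isoforms were summed, which left 45435 genes. Models were fitted on log2(TPM + 1) with limma 3.58.1 under R 4.3.3 (lmFit, then eBayes with trend) for the 15003 genes that averaged 1 TPM or more, with 13 group means and 26 residual degrees of freedom, and the scripts were tested on simulated data. P-values were adjusted by Benjamini-Hochberg over all tested genes of a comparison. Isoform classes were compared in an additive limma model over 12 line means. All 12 comparisons with the parental cells share its 3 libraries.

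The members, gene lists and tests were chosen with earlier results of these data known. Genes were named by a rule: the members, HNF4A, the list gene of each role called in the most lines, the 5 genes most like ACSL5 and its 2 neighbours on each side. Other list genes are named where called. The library columns of isoforms 4 and 5 (6 libraries) carry no replicate number of their own. Alternatives covered the pseudocount, the filter, scaling, the minimum fold change, the samples in the fit, a replicate block, the class model and leaving out each library.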

Additional observations from a re-analysis of the deposited data

Results flagged for a closer look

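ACSL1 differed in direction between lines: its log2(TPM + 1) difference from the parental cells was -0.63 in isoform 1, where every library lay below the parental libraries, and 0.17 in isoform 6, where every library lay above them. The difference between these 2 lines was not tested. ACSL5 differed in the same way, at 6.09 in isoform 1 and -0.30 in isoform 6, and since its values chose it, that difference was not tested either.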

How the results depend on the processing

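Between the main fit and any 1 alternative, no difference that was called or had an adjusted p under 0.05 in either of them changed direction. Between alternatives, ACSL3 in isoform 1 did. It was -0.18 without parental replicate 1 (limma adjusted p = 0.0328) and 0.0013 with scaling. Smaller differences from the parental cells did change sign: those of ACSL3 in 6 lines (all 6 with scaling), of ACSL4 in 3, of ACSL1 in isoform 9 (0.05, and -0.0040 without isoform 9 replicate 2) and of ACSL5 in isoform 5. Without the minimum fold change, 7 of the tests of ACSL1, ACSL3 and ACSL4 passed in place of 0, over all 12 lines and likewise over the 10 lines with replicate numbers, and 19 tests of the ACSL5 neighbours passed in place of 0. Under that rule the called list genes were 64, 57, 41, 21, 8, 10, 44, 36, 25, 53, 44 and 20 in isoforms 1 to 12, 45 for isoforms 4 to 6 minus 1 to 3, and 19 for isoforms 7 to 9 minus 1 to 3. Shares of all genes under that rule are given above for the 12 lines and for isoforms 4 to 6 minus 1 to 3. None is given for isoforms 7 to 9 minus 1 to 3, so nothing is read from its 19. In isoform 7 the called list genes were 2 with a pseudocount of 0.1 and 3 with median-of-ratios scaling in place of 1, and scaling gave 1 in place of 2 in isoform 8 and 2 in place of 1 in isoform 11. Leaving out a library gave 1 to 3 in isoform 7 (3 without isoform 7 replicate 3, 2 without parental replicate 1) and 0 to 2 in isoform 8 (0 without parental replicate 1 or isoform 8 replicate 3, 1 without parental replicate 3). With a pseudocount of 0.1 the log2 difference of ACSL5 was 7.34, 6.97 and 4.06 in isoforms 1 to 3, -0.86 in isoform 6, 6.63, 6.12 and 4.24 in isoforms 7 to 9, 6.49, 6.36 and 4.25 in isoforms 10 to 12, and -6.40 for isoforms 4 to 6 minus 1 to 3. With scaling the log2 difference of ACSL5 was 6.19, 5.81 and 2.94 in isoforms 1 to 3 and 0.07, -0.03 and -0.29 in isoforms 4 to 6. It was 5.45, 4.88 and 3.08 in isoforms 7 to 9 and 5.26, 5.18 and 3.08 in isoforms 10 to 12. Of 24 calls of list genes, 20 held under every alternative and 4 were lost under some.

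Same-numbered libraries deviated together only weakly (165 pairs, median correlation 0.0542, 38 over 0.1; 330 pairs with different numbers, median -0.0293, 12 over 0.1). Taking the numbers as pairs needed every same-numbered pair over 0.1, which was not so. A rule this strict cannot show that pairing is absent. The main fit has no pairs, and a fit with the replicate numbers as a block is given beside it. With the replicate block, 0 tests of ACSL1, ACSL3 and ACSL4 were called over the 10 lines, as without it, and no count of calls moved. The limma adjusted p of ACSL3 was 0.0408 in isoform 1 and 0.0365 in isoform 12 with the block. Counting error limits ACSL6 and the values of ACSL5 under 1 TPM, and TPM hold no depth to size it for a single library. The authors' mean normalised counts give a rough scale. They were 52.9, 51.1 and 34.7 for ACSL5 in the comparisons of isoforms 4, 5 and 6, and 81.1 to 122.6 for ACSL6.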

Other observations

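Around ACSL1, all 3 tested neighbours varied over the lines without being called, and they are named here after their values were seen. CENPU, a centromere protein gene on the same strand, had log2 differences from the parental cells between -0.96 (isoform 1) and 0.05 (isoform 6), with a limma adjusted p under 0.05 in 7 lines. PRIMPOL, a primase and polymerase gene, had differences between -0.62 (isoform 1) and 0.18 (isoform 6), with a limma adjusted p under 0.05 in 7 lines. SLC25A4, a mitochondrial ADP/ATP carrier gene, had differences between -0.23 (isoform 7) and 0.86 (isoform 2), with a limma adjusted p under 0.05 in 11 lines. Per line, 10.1% (isoform 6) to 58.5% (isoform 1) of all tested genes had an adjusted p under 0.05. Nothing about this region is read from the 3 counts.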
